A study of Mus musculus with 67 samples.

Results

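The interaction of valproic acid (VPA) and EPZ6438 was examined in mouse intestinal organoids with a 2-by-2 set of culture conditions, which made up 27 of the 67 bulk RNA-seq libraries of the study. Membership followed the sample titles alone. The organoids were grown from crypts of the proximal small intestine in Matrigel, and the study sought a medium that brings out an epithelial regeneration programme. All 4 groups shared the same base of LDN193189, a BMP receptor inhibitor, at 0.2 μM, Pexmetinib at 1 μM, GSK-3 Inhibitor XV at 0.1 μM, EGF at 50 ng/mL, FGF2 at 20 ng/mL and R-Spondin 1 conditioned medium at 10%. The group vitro_NC (7 libraries) had this base only, vitro_+V (7) added 500 μM VPA, vitro_+E (6) added 2 μM EPZ6438, and vitro_+VE (7) had both compounds, which is the full 8-component (8C) medium. They are called NC, +V, +E and +VE here. The titles number the replicates from 1, replicate 7 having no +E library, and do not say whether a number marks one mouse. Mouse age, sex and strain are not given in the labels of these libraries.

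VPA inhibits histone deacetylases, so that acetyl groups stay longer on histones and transcription of many silent genes becomes easier. EPZ6438 (tazemetostat) inhibits EZH2, the enzyme of Polycomb repressive complex 2 that places methyl groups on lysine 27 of histone H3 and keeps developmental genes silent, mostly at promoters rich in CG dinucleotides. Both marks act on overlapping sets of promoters, and a gene can be held down by either or by both together. A design with each compound alone and both together separates a gene that needs both compounds from one for which either compound is enough.

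The deposited values were TPM, a measure of transcript abundance scaled to a common total per library, and every effect below is a difference on the log2(TPM + 1) scale, which understates the change of genes near 0 TPM. The single effects, V and E, and the combined effect, VE, are differences from NC. The interaction is +VE minus +V minus +E plus NC. It is 0 where the effects of the compounds add up on this scale, that is, multiply in TPM + 1, and 1 where the combination lies 2-fold above that product. The products given for single genes below are of mean TPM instead. Near 0 TPM the product in TPM + 1 and the product in TPM differ, so a positive interaction there need not mean a level above the product in TPM. Only this term was tested. A gene was called at an adjusted p under 0.05 and an interaction of at least 1 in absolute size. Called genes were then sorted, without a further test and with the first class that applied taken in this order, into synergy (VE has the sign of the interaction, is at least 1 in size and exceeds both V and E), redundancy (V and E have one sign and are each at least 0.5 in size, and VE falls short of their sum but reaches at least the smaller of them) and antagonism (VE is less than a single effect of at least 1 in size, against which the interaction runs).

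One library stood apart before any result. The library +VE replicate 2 deviated from its group mean with little relation to the other libraries of its number, with correlations of 0.0387 to 0.105 across genes, against 0.378 or more for every other pair of equal numbers. Without it, 145 genes were called in place of 127, 112 of them the same, and 73 of the 79 synergy, 31 of the 36 redundancy and 5 of the 6 antagonism genes remained called. Libraries numbered 1 to 3 and 4 to 6 also differed from each other, and the plot of interactions by replicate number shows 20 leading genes within each number. The epithelial identity of the cultures was clear in every group, with 10 epithelial marker genes summing to between 11121 and 18222 TPM. Of 15 mesenchymal marker genes, 11 stayed under 1 TPM in all 27 libraries, as did 13 of 17 immune, 8 of 10 endothelial and 4 of 7 glial markers. The read depth behind the values is unknown, since TPM does not keep it.

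Of 12556 genes tested, 127 (1.01%) were called for an interaction, 85 (0.677%) positive and 42 (0.335%) negative. The adjusted p alone was passed by 218 (1.74%), and an unadjusted p under 0.05 by 1092 (8.7%). Without the replicate block 73 genes were called, 72 of them the same. Of the called genes, 79 fell into synergy, 36 into redundancy and 6 into antagonism, and 6 stayed outside these classes. The median interaction over all genes tested was 0.01, with 6507 of the 12556 positive. The synergy genes comprised 77 that were higher with the combination and 2 that were lower (Olfm4 and Aoc1). This balance cannot be read apart from the filter, by which a gene was tested when its 27 libraries averaged 1 TPM or more. In NC 67 of the 77 had a mean under 1 TPM, so that they entered the test through a treated group and had little room to fall. With a minimum mean of 5 TPM 15 synergy genes were called. Redundancy held 35 genes that either compound turned up and 1, Khdc1a, that either turned down.

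**Figure D1:**
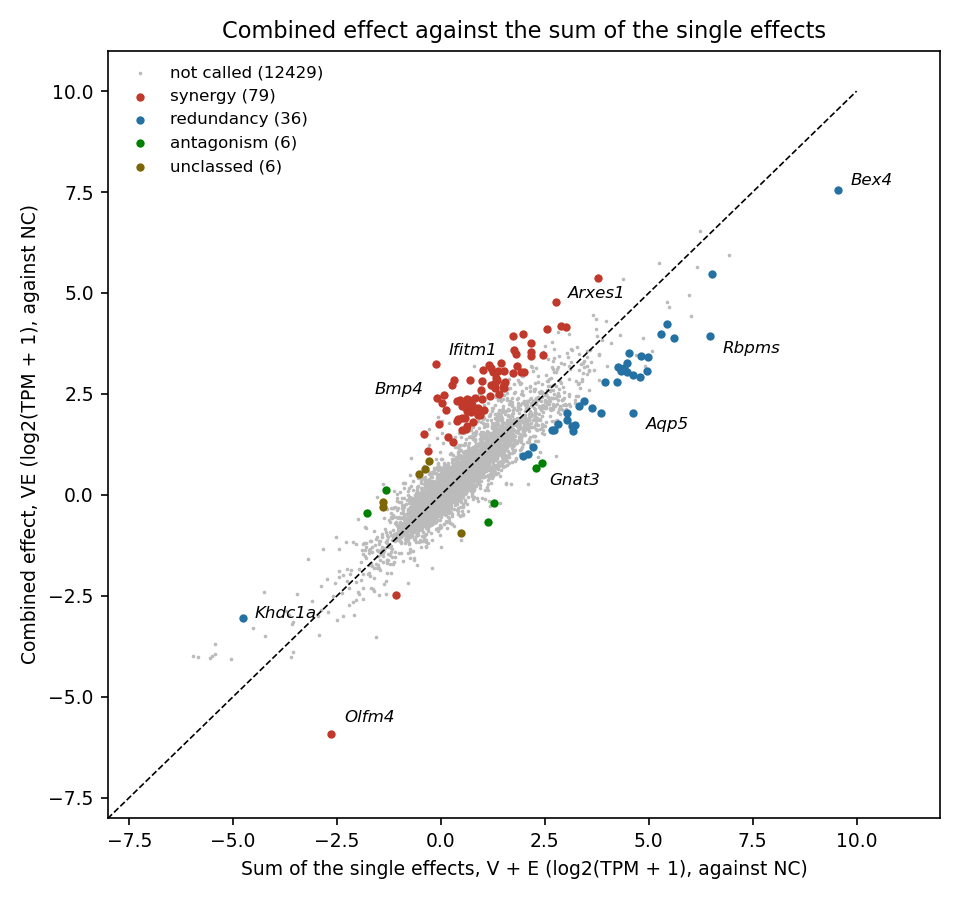
Combined effect (VE, vertical axis) against the sum of the single effects (V + E, horizontal axis) for each of the 12556 genes tested, both in log2(TPM + 1) against NC, with called genes coloured by class. The dashed line marks an interaction of 0, synergy genes such as Ifitm1 lie above it, redundancy genes such as Rbpms and Bex4 below it, and Olfm4 stands alone at a combined effect of -5.93.

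The balance of the calls depended on how levels near 0 were treated. With a pseudocount of 0.1 TPM in place of 1, 103 genes were called, 30 positive and 73 negative, so that 29.1% were positive in place of 66.9%. With a pseudocount of 5 TPM, 46 were called, 35 of them positive, and with a minimum mean of 5 TPM, 47 were called, 14 of them positive. Quantile normalization gave 140 calls, 75% of them positive, and the fit without replicates 2 and 7 gave 132, 80.3% of them positive. At 0.1 TPM 25 of the 79 synergy and 33 of the 36 redundancy genes kept their class, and at 5 TPM 27 and 8 did. Of the called genes, 20 kept their class at all 3 pseudocounts, 12 of them synergy, 6 redundancy, 1 antagonism and 1 outside the classes (Gimd1).

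Of the 79 synergy genes, 67 had a mean under 1 TPM in NC, against 670 of the 12556 genes tested. Such genes passed the filter on the mean only through the treated groups, so their number describes the set and supports nothing further. In 56 of the 79 neither compound alone moved the gene by 1. Their median effects were 0.35 for VPA, 0.59 for EPZ6438 and 2.5 for the combination. All 7 +VE libraries lay beyond the other 20 libraries in 60 of the 79, against 1.63% of all genes tested lying above and 0.0717% below. The interaction had one sign in all 6 complete replicate numbers in 76 of the 79, against 7.21% of all genes tested. Both shares are favoured by the call itself, which uses the same contrast. On the linear TPM scale, where 0 means that the effects add up, 78 of the 79 kept the sign of the interaction.

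Olfm4 (ENSMUSG00000022026.7, chr14:79984081-80023139, + strand, GRCm38), which encodes a secreted glycoprotein that marks crypt base stem cells, carried the largest negative interaction. In NC its level ran from 682 over a median of 1451 to 1713 TPM. It ran from 241 over 837 to 1559 TPM in +V and from 228 over 496 to 624 TPM in +E. In +VE it ran from 6.57 over 22.5 to 41.1 TPM, so that every +VE library lay below every other library while +V overlapped both NC and +E. The single effects were -0.94 and -1.70, the combined effect -5.93 and the interaction -3.29 ± 0.38 (SE, adjusted p = 1.82e-05), negative in 6 of 6 numbers. The mean in +VE, 24.2 TPM, was 57.0-fold below NC, where the product of the single effects would give 272 TPM. On the linear scale the sign turned (124 TPM), because the single losses together already exceed the level in NC. Of the other 19 crypt base stem cell markers tested none was called, where 1.01% of all genes tested were. Of the 20, 5 had an unadjusted p under 0.05 (25%, against 8.7% of all genes tested), 4 of them with a negative interaction, and the median interaction was -0.16. Lgr5, the receptor for R-spondins that defines these cells, had means of 56.6 TPM in NC and 65.0 TPM in +VE and an interaction of -0.17 (adjusted p = 0.982).

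Ifitm1 (ENSMUSG00000025491.14, chr7:140967221-140969825, + strand), a small interferon-inducible membrane protein, had the largest positive interaction. It ran from 0 to 1.32 TPM in NC, from 0 to 1.75 TPM in +V and from 0 to 0.378 TPM in +E. In +VE it ran from 1.85 over 17.4 to 54.3 TPM, above all other libraries but with a wide spread. The interaction was 3.38 ± 0.56 (SE, adjusted p = 0.00145). Genes with shared sequence in the Ifitm family may share reads, so its level is uncertain. None of the 30 interferon-stimulated genes tested was called by limma, 1 of them reached an unadjusted p under 0.05 (against 8.7% of all genes tested), and their median interaction was -0.09.

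Bmp4 (ENSMUSG00000021835.15, chr14:46383520-46390669, - strand), a BMP ligand that opposes stem cell expansion in the crypt, was all but absent until both compounds were added. Its level was 0 to 1.13 TPM in NC, 0 to 0.339 TPM in +V and 0 to 0.405 TPM in +E. In +VE it was 3.14 over 4.37 to 7.75 TPM, above every other library. The interaction was 2.27 ± 0.21 (adjusted p = 2.1e-06). A further pair of secreted ligands, chosen after their values were seen, were also called for synergy. Sonic hedgehog (Shh), the crypt-to-mesenchyme signal, ran from 3.19 to 13.1 TPM in +VE and reached at most 0.711 TPM in NC, 1.20 TPM in +V and 2.24 TPM in +E (interaction 1.83 ± 0.32, adjusted p = 0.0021). The neuregulin Nrg2, a ligand of ErbB receptors, ran from 1.40 to 7.50 TPM in +VE against at most 0.469 TPM elsewhere (1.99 ± 0.30, adjusted p = 0.000473). The calls of Bmp4 and Nrg2 were lost at a pseudocount of 5 TPM, and that of Shh at 0.1 TPM and within numbers 4 to 6. Fgf9, another ligand named for comparison after its values were seen, went to redundancy, with means of 1.23, 2.72, 3.53 and 2.94 TPM in NC, +V, +E and +VE (-1.0 ± 0.26, adjusted p = 0.0464), and lost its call in 27 of the 34 fits that left out 1 library or 1 number, and among other settings without the block and at both other pseudocounts.

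Dmrt1 (chr19:25505618-25604329, + strand), a transcription factor of the testis, was listed at 0 in all 20 libraries outside +VE. In +VE it ran from 0.388 over 5.29 to 7.80 TPM, the lowest value being that of replicate 7. The interaction was 2.49 ± 0.33 (adjusted p = 0.000137) and was under the size asked for at a pseudocount of 5 TPM (0.99). Tmem47 (chrX:81070698-81097872, + strand), a membrane protein of cell junctions, ran from 3.00 over 4.58 to 11.6 TPM in +VE. Its highest values elsewhere were 0.0533 TPM in NC, 0.318 TPM in +V and 0.432 TPM in +E (2.45 ± 0.28, adjusted p = 1.69e-05). Both genes thus went from about 0 to several TPM only when the compounds were combined, and every +VE library lay apart.

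Among the synergy leaders, Sntb1, Fn1 and Fscn1 encode proteins of the cytoskeleton or matrix, a grouping that was not tested. Sntb1 (chr15:55636388-55906949, - strand), a syntrophin that links the dystrophin complex to the membrane, ran from 3.13 over 5.41 to 9.44 TPM in +VE and at most 0.400 TPM in the other groups (2.41 ± 0.21, adjusted p = 1.19e-06). Fibronectin (Fn1, chr1:71585520-71653200, - strand) ran from 1.29 over 5.05 to 31.1 TPM in +VE and at most 0.741 TPM elsewhere (2.53 ± 0.51, adjusted p = 0.00852), and its call was lost without replicate 6 (2.47, adjusted p = 0.0572), within numbers 1 to 3 and at a pseudocount of 5 TPM. Fascin (Fscn1, chr5:142960343-142973185, + strand), which bundles actin, responded to VPA alone as well, with 2.04 to 5.25 TPM in +V against 0.219 to 1.15 TPM in NC. It reached 10.5 over 25.1 to 56.5 TPM in +VE (2.21 ± 0.34, adjusted p = 0.000621) and was not called within numbers 1 to 3.

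Further genes of this kind were picked out after their values were seen and are no tested theme. The non-muscle myosin gene Myh10 had an interaction of 2.01 ± 0.36, the basement membrane collagen Col4a5 one of 1.66 ± 0.24, the laminin chain Lamb1 one of 1.41 ± 0.23, the collagen crosslinking enzyme Loxl2 one of 1.33 ± 0.22 and moesin (Msn) one of 1.22 ± 0.21. Their adjusted p-values lay between 0.000291 and 0.00252, and +VE lay above all other libraries in each but Lamb1. Each lost its call in some setting, Loxl2 and Msn within numbers 1 to 3 and at pseudocounts of 0.1 and 5 TPM, Col4a5 within numbers 1 to 3 and at 5 TPM, Myh10 at 0.1 TPM and Lamb1 at 5 TPM and without the replicate block. Vimentin (Vim), an intermediate filament of mesenchymal cells, was lower by 0.79 in +V, higher by 0.95 in +E and higher by 1.43 in +VE. It ran from 16.9 to 27.2 TPM in +VE, overlapping +E at 10.6 to 22.6 TPM (interaction 1.27 ± 0.21, adjusted p = 0.00145), with the call lost at a pseudocount of 5 TPM. The summed mesenchymal list, of which Vim was the only gene tested, was 20.8 to 30.6 TPM in +VE, 12.7 to 24.3 TPM in +E, 4.53 to 9.12 TPM in +V and 6.55 to 11.5 TPM in NC. The part of other cell types in these results was not tested, and in bulk RNA a change in the share of a cell type cannot be told apart from a change within cells.

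**Figure D2:**
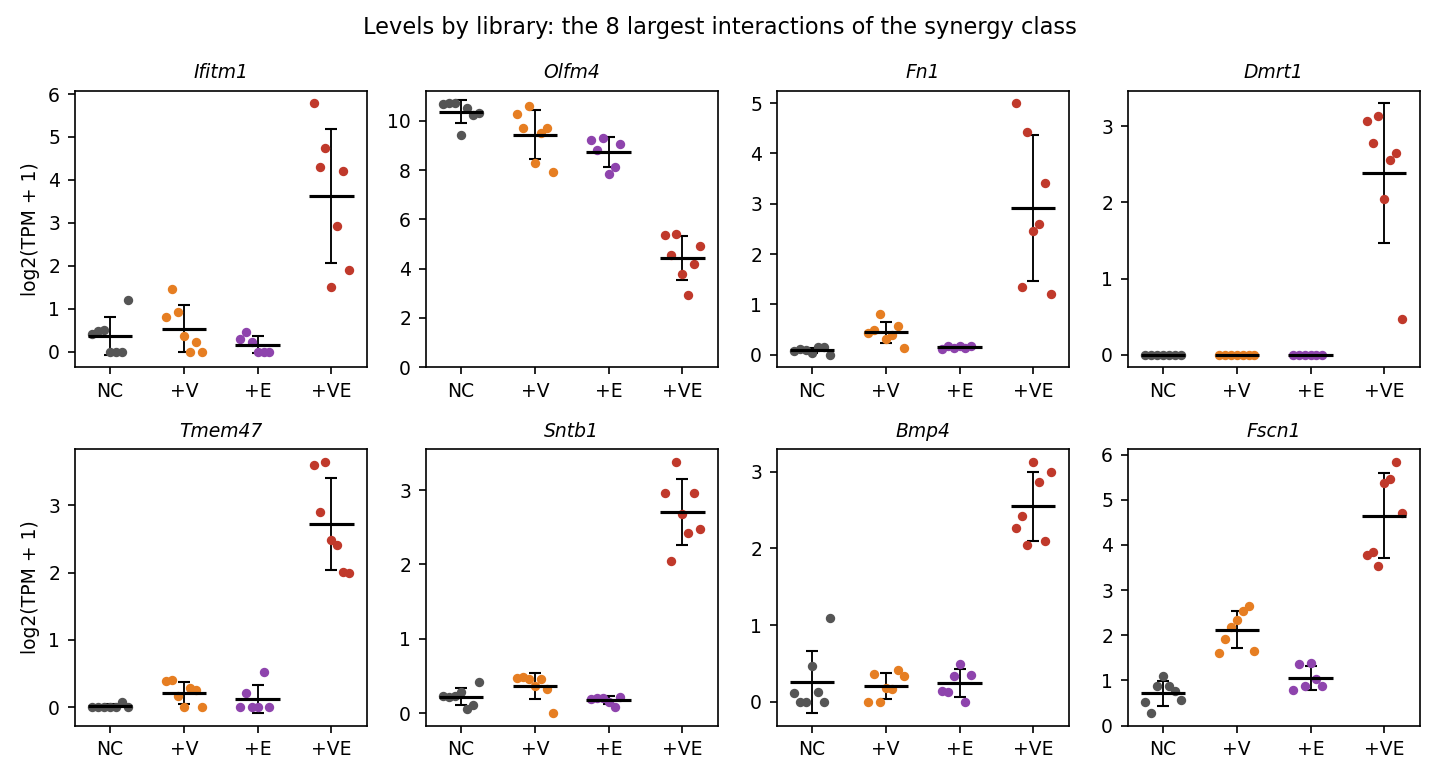
Levels (log2(TPM + 1), vertical axes) of the 8 synergy genes with the largest interactions in NC, +V, +E and +VE, each point being 1 library ordered by replicate number, with the group mean (line) and SD (bar). In 7 of the 8 genes the +VE libraries lie above the other groups, and in Olfm4 they lie below, at 6.57 to 41.1 TPM.

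The 12 synergy genes that held at all 3 pseudocounts included genes with means of at least 1 TPM in NC. Gnal, a G protein alpha subunit of olfactory signalling, ran from 2.47 to 5.14 TPM in NC, 2.18 to 4.70 TPM in +V and 4.08 to 5.98 TPM in +E. It then reached 10.8 over 14.9 to 21.7 TPM in +VE (1.48 ± 0.15, adjusted p = 2.14e-06). Igfbp2, which binds insulin-like growth factors, had means of 12.8, 25.1, 31.5 and 143 TPM in NC, +V, +E and +VE, where the product of the single effects would give 61.7 TPM (1.68 ± 0.33, adjusted p = 0.00712). Its call was lost without replicate 1 (1.53, adjusted p = 0.0640) or 3 (1.46, adjusted p = 0.0560). Complement factor I (Cfi) had means of 14.6, 10.4, 32.7 and 62.0 TPM (1.32 ± 0.30, adjusted p = 0.0208) and lost its call in 4 of 34 leave-one-out fits (1.17 to 1.55 over all of them). Ndufa4l2, a nuclear gene for a mitochondrial protein, had means of 10.3, 5.70, 8.20 and 29.8 TPM (1.91 ± 0.32, adjusted p = 0.00144). The transcription factor Sp6 reached 5.85 to 10.7 TPM in +VE from at most 1.54 TPM elsewhere (2.15 ± 0.21, adjusted p = 2.14e-06), and kindlin-2 (Fermt2), an integrin activator, 4.04 to 17.1 TPM from at most 1.46 TPM (2.10 ± 0.29, adjusted p = 0.000232). Without the replicate block Ndufa4l2, Igfbp2 and Cfi were not called, nor was Ndufa4l2 within numbers 1 to 3, Igfbp2 within numbers 4 to 6 or Cfi with all 10 organoid groups in the fit. Sp6 and Fermt2 had means of 0.223 and 0.0616 TPM in NC. These 6 genes were picked out after their values were seen, for keeping their class.

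The redundancy genes were higher with each compound alone, Khdc1a excepted, and the combination fell short of the sum. The median effects over the 36 genes were 1.92 for VPA, 1.99 for EPZ6438 and 2.79 for the combination, with a median interaction of -1.27. All 6 complete numbers had one sign in 34 of the 36, against 7.21% of all genes tested, a share that the call itself favours. The +VE libraries lay beyond all others in 5, against 1.63% of all genes tested above and 0.0717% below. On the linear scale 12 of the 36 had the opposite sign, so that their combined gain in TPM was larger than the sum of the single gains.

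Rbpms (ENSMUSG00000031586.17, chr8:33782643-33929863, - strand), an RNA-binding protein of smooth muscle and other tissues, was the clearest case. It ran from 0.519 over 0.604 to 1.59 TPM in NC. It ran from 10.4 to 23.6 TPM in +V and from 13.3 over 16.1 to 19 TPM in +E, and from 17.8 over 26.9 to 39.1 TPM in +VE. Each treated group lay wholly above NC, and the 3 treated groups overlapped. The single effects of 3.19 and 3.30 gave a combined effect of 3.93 (interaction -2.55 ± 0.26, adjusted p = 2.85e-06). The Ena/VASP actin regulator Evl (chr12:108554720-108688516, + strand) followed it at higher levels, with means of 8.86, 49.1, 45.5 and 66.9 TPM in NC, +V, +E and +VE where the product would give 252 TPM (-1.87 ± 0.30, adjusted p = 0.00128). The kinase Stk26 (chrX:50841047-50893097, + strand) had means of 1.63, 13, 13.1 and 20.0 TPM (-1.89 ± 0.24, adjusted p = 5.08e-05). For Rbpms and Evl no fit lost the call, leave-one-out fits included, and for Stk26 it was lost within numbers 1 to 3 alone and at a pseudocount of 5 TPM.

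Bex4 (ENSMUSG00000047844.3, chrX:136138996-136140443, + strand), of the brain-expressed X-linked family, combined the largest combined effect among the called genes with a negative interaction. It ran from 0 over 1.05 to 5.12 TPM in NC, from 31.6 to 62.5 TPM in +V and from 64.3 to 93.5 TPM in +E. In +VE it ran from 223 over 471 to 607 TPM, and the 4 groups did not overlap. The effects of 4.52 and 5.04 gave 7.56 together (-2.0 ± 0.41, adjusted p = 0.00994). The mean of 445 TPM lay below the 2286 TPM of the product and above the 126 TPM of the sum, so that Bex4 fell short of the single effects on the log scale and exceeded them on the linear one (319 TPM). Its call was lost without replicate 1 (-1.82, adjusted p = 0.0552) or 5 (-1.94, adjusted p = 0.0633), and also within numbers 4 to 6, at a pseudocount of 5 TPM and without replicates 2 and 7 (-3.17 to -0.63 over the settings on a log2 scale).

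The Arxes pair, 2 neighbouring copies on the X chromosome named for expression in fat cells, split between classes. Arxes1 (chrX:136033367-136034946, + strand) had means of 0.108, 1.44, 3.04 and 29.9 TPM in NC, +V, +E and +VE and was called for synergy (2.01 ± 0.29, adjusted p = 0.000369). Arxes2 (chrX:135993824-135995355, + strand) had means of 0.520, 13.2, 14.6 and 63.6 TPM and was called for redundancy (-1.07 ± 0.24, adjusted p = 0.0210). In both genes every +VE library lay above all others, with 18.8 to 38.2 TPM for Arxes1 and 43.4 to 74.3 TPM for Arxes2. In Arxes2 the call was lost in 9 of 34 leave-one-out fits (-1.24 to -0.88), without the replicate block, within numbers 4 to 6, under quantile normalization and without replicates 2 and 7. Both classes depended on the pseudocount, since a pseudocount of 0.1 TPM took the interaction of Arxes1 to 0.73 (adjusted p = 0.886) and one of 5 TPM took that of Arxes2 to 0.18 (adjusted p = 0.951). Reads may be shared between copies this alike, so the split of their levels is uncertain. The 300-base windows of the RefSeq promoters (250 bases before to 50 after the start, GRCm38.p6) were identical at all 300 positions. The window is shown once, since it is the sequence that the pair of opposite calls has in common, read 5′ to 3′ with CG dinucleotides in capitals, at chrX:136033117-136033416 for Arxes1 and chrX:135993570-135993869 for Arxes2, both + strand.
Arxes1 and Arxes2: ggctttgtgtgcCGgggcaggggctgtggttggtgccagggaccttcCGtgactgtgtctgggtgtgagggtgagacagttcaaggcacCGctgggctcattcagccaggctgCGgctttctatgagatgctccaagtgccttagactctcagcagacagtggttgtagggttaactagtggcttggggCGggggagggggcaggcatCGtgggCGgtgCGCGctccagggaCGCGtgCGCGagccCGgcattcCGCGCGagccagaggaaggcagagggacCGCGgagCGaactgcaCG

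The remaining redundancy leaders were less firm. The water channel Aqp5 (chr15:99590782-99594829, + strand) reached 8.45 to 67.7 TPM in +E, 0 to 31.9 TPM in +V and 1.55 to 22.7 TPM in +VE, with at most 2.45 TPM in NC. Its +V libraries parted by number, at 18.8 to 31.9 TPM in numbers 1 to 3 and 0 to 1.61 TPM in numbers 4 to 7, and within numbers 4 to 6 alone it was not called (interaction -2.59 ± 0.58, adjusted p = 0.0208 over all libraries). The call was also lost without replicate 1, 2, 3 or 6, at -2.77 to -2.16, without the block (-2.87, adjusted p = 0.511), at a pseudocount of 0.1 TPM (adjusted p = 0.117) and without replicates 2 and 7. Within numbers 1 to 3 alone Aqp5 was called for antagonism (-4.62). Igf2bp3, a fetal RNA-binding protein, had means of 4.09, 15.1, 18.1 and 17.7 TPM (-1.83 ± 0.38, adjusted p = 0.0118), the combination lying between the compounds, and lost its call without replicate 1, 2 or 3, at -1.88 to -1.38, and within numbers 4 to 6. Nidogen (Nid1), of basement membranes, had means of 0.848, 10.9, 13.4 and 31.4 TPM (-1.71 ± 0.43, adjusted p = 0.0402) and lost its call in 23 of 34 leave-one-out fits, without the block, within each set of numbers, at a pseudocount of 5 TPM, under quantile normalization and with either other minimum mean. Podxl, a sialomucin named after its values were seen, kept its class at all 3 pseudocounts with means of 9.30, 34.1, 53.2 and 69.3 TPM (-1.65 ± 0.32, adjusted p = 0.00641), but was not called without the replicate block, within numbers 4 to 6 or without replicates 2 and 7. Khdc1a, a KH-domain gene of the oocyte with close copies nearby, was the only redundancy gene below NC in all treated groups. It went from 2.73 to 21.0 TPM in NC to at most 1.44 TPM in +V, 2.08 TPM in +E and 0.343 TPM in +VE (1.73 ± 0.35, adjusted p = 0.00852). The single effects of -2.76 and -2.02 together exceed its level in NC on the log2 scale, so its class cannot be told apart from the floor at 0 TPM. Its call was lost without replicate 1 (1.57, adjusted p = 0.0656), without the block, within numbers 4 to 6 and at a pseudocount of 0.1 TPM.

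**Figure D3:**
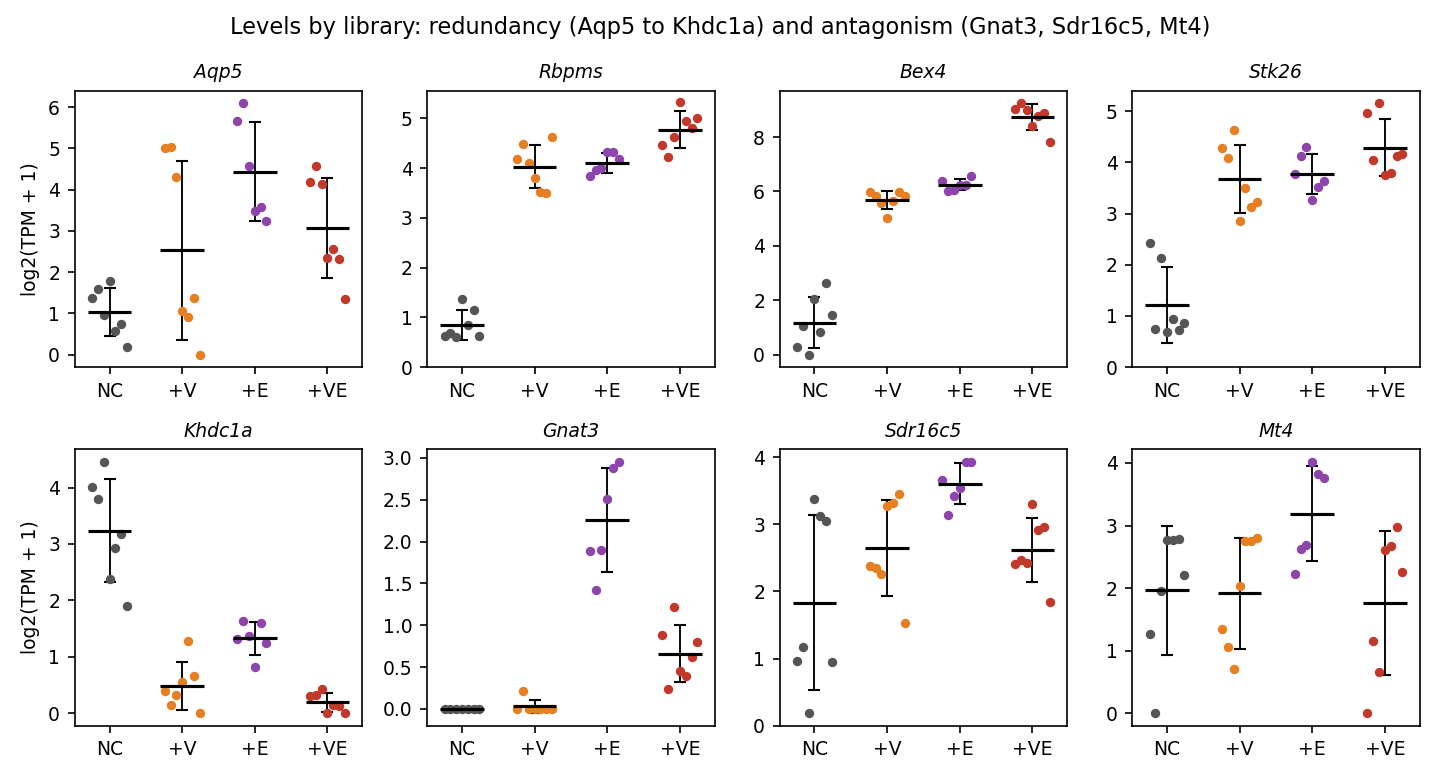
Levels (log2(TPM + 1), vertical axes) of 5 redundancy genes (Aqp5, Rbpms, Bex4, Stk26, Khdc1a) and 3 antagonism genes (Gnat3, Sdr16c5, Mt4) by group, each point being 1 library ordered by replicate number, with mean (line) and SD (bar). In Rbpms and Stk26 either compound brings the level close to that of the combination, and Gnat3 is high in +E and low in +VE.

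Antagonism held 6 of the called genes. Since redundancy was assigned first, genes such as Aqp5, Dpysl5 and Rims2, whose combined effect was also below the larger single one, are counted there. Gnat3 (ENSMUSG00000028777.8, chr5:17962549-18019834, + strand), the taste G protein gustducin that is also found in tuft cells, lost its call in fewer fits than the other named genes of the class. It was listed at 0 in all 7 NC libraries and reached at most 0.157 TPM in +V. In +E it ran from 1.67 over 3.71 to 6.76 TPM and in +VE from 0.180 over 0.538 to 1.34 TPM, so that the groups +E and +VE did not overlap. VPA alone had an effect of 0.03 and EPZ6438 alone 2.27, and the combination one of 0.66 (-1.63 ± 0.27, adjusted p = 0.00146), with the call lost at a pseudocount of 5 TPM. Gnat3 passed the filter on the mean mainly through +E. It was therefore tested in only 29 of the 34 leave-one-out fits, and its call held in those. The sum of 18 tuft cell markers ran from 26.2 to 86.5 TPM in +E, 19.3 to 29.3 TPM in +VE, 12.8 to 27.1 TPM in +V and 18.3 to 43.1 TPM in NC, and the part of tuft cell number in the result for Gnat3 was not tested. Of the 10 tuft markers tested none was called by limma, 3 reached an unadjusted p under 0.05 (30%, against 8.7% of all genes tested), and their median interaction was -0.23.

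Sdr16c5, a retinol dehydrogenase, had means of 3.95, 5.92, 11.4 and 5.42 TPM in NC, +V, +E and +VE (-1.65 ± 0.37, adjusted p = 0.0200). The metallothionein Mt4 had means of 3.64, 3.39, 9.21 and 3.28 TPM (-1.47 ± 0.34, adjusted p = 0.0265), so that the gain with EPZ6438 was absent with both. The lectin Siglec15 had means of 0.979, 5.74, 0.614 and 0.194 TPM (-1.79 ± 0.45, adjusted p = 0.0419), so that the gain with VPA was absent with both. These 3 calls were lost in 4 (Sdr16c5), 11 (Mt4) and 24 (Siglec15) of 34 leave-one-out fits, over which the interactions ran from -1.93 to -1.39, -1.64 to -1.25 and -2.07 to -1.53. All 3 were also lost without the block, at a pseudocount of 5 TPM and without replicates 2 and 7. Sdr16c5 and Mt4 were lost at 0.1 TPM and within numbers 4 to 6 as well, Mt4 further with a random block, within numbers 1 to 3, within numbers 1 to 6 and with all 10 organoid groups in the fit, and Siglec15 under quantile normalization and with no minimum mean. The interaction of Siglec15 was -3.39 to -2.74 in numbers 1 to 3 and -1.43 to -0.56 in numbers 4 to 6. A further antagonism gene, Gm13647, is a predicted gene. Gimd1, left without a class, was at 28.5 to 41.0 TPM in +VE, below every other library, with single effects of 0.22 and 0.27 and a combined effect of -0.93 (-1.42 ± 0.26, adjusted p = 0.00276). Its interaction was -2.73 to -1.89 in numbers 1 to 3 and -0.76 to -0.58 in numbers 4 to 6, and the call was lost without the block and within numbers 4 to 6. It was named after its values were seen.

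**Figure D4:**
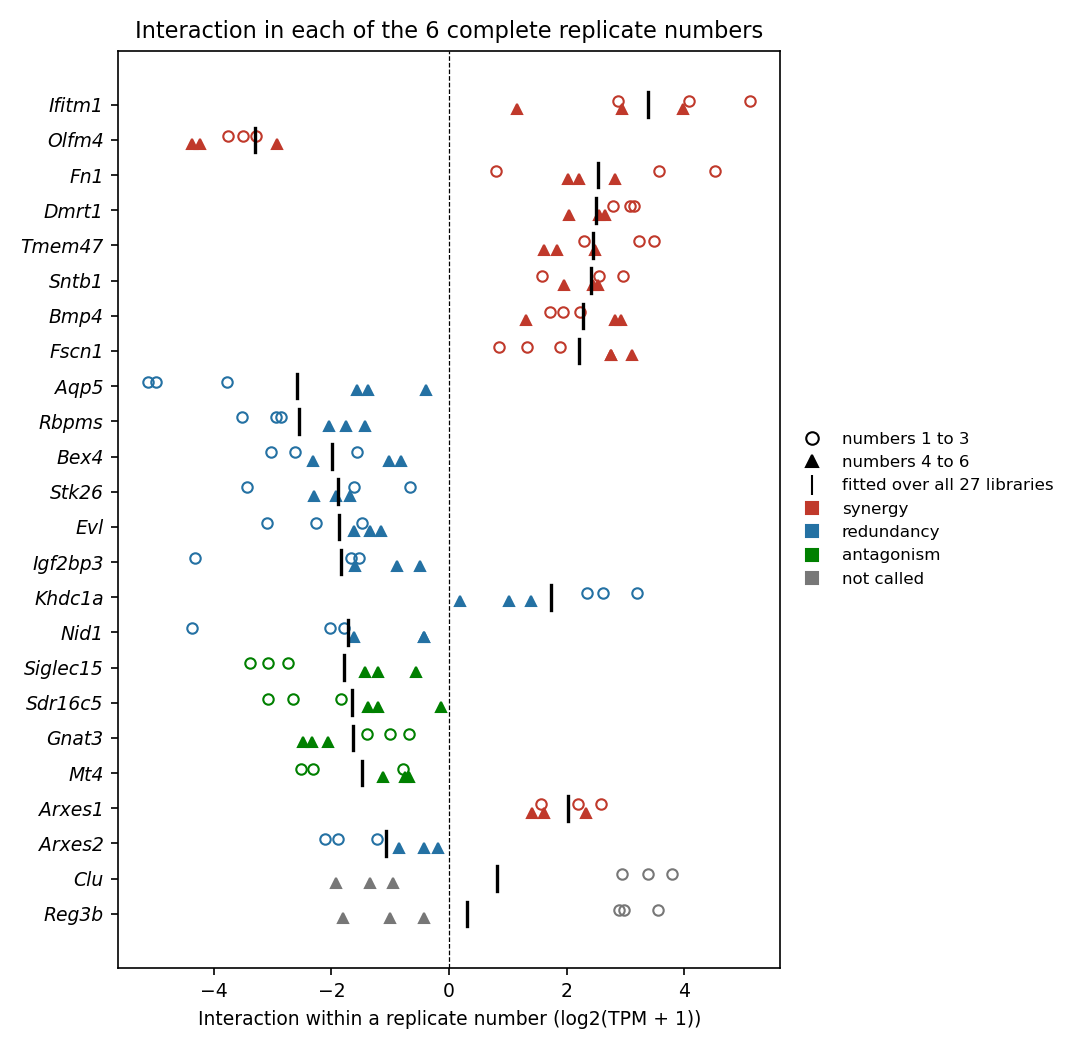
Interaction (log2(TPM + 1), horizontal axis) computed within each of the 6 complete replicate numbers for 20 class leaders, the Arxes pair, Clu and Reg3b, with open circles for numbers 1 to 3, triangles for 4 to 6 and a bar for the fit over all 27 libraries. The leaders keep 1 side of 0 in all 6 numbers, which the call that picked them favours. Clu and Reg3b, named whether called or not, are positive in numbers 1 to 3 and negative in 4 to 6.

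The screening markers of regeneration showed no interaction that passed the test over all libraries. The secreted chaperone gene Clu, a marker of revival stem cells, had a fitted interaction of 0.81 (adjusted p = 0.947), Ly6a (Sca1) one of 0.65 (0.713), Anxa1 one of 0.24 (0.994) and the antimicrobial lectin Reg3b one of 0.30 (adjusted p = 0.997). For Clu and Reg3b this hid a split between replicate numbers. Clu lay at 11.1 to 21.0 TPM in +E in numbers 1 to 3 and at 198 to 342 TPM in numbers 4 to 6. Its interaction was 3.37 within numbers 1 to 3 (adjusted p = 0.00684) and -1.40 within numbers 4 to 6 (adjusted p = 0.0180). Reg3b had 3.14 within numbers 1 to 3 (adjusted p = 0.000652) and -1.08 within numbers 4 to 6 (adjusted p = 0.0857). The difference between the sets of numbers was not tested, and the sets were drawn from the data and are no named batch. The lectin Reg3g had 2.57 within numbers 1 to 3 (adjusted p = 0.000214) and 0.49 within numbers 4 to 6 (adjusted p = 0.254). Without replicate 7 it was 1.53 (adjusted p = 0.0438). Over all libraries it had means of 33.5, 184, 218 and 1372 TPM in NC, +V, +E and +VE, where the product would give 1199 TPM (interaction 0.98, adjusted p = 0.711). The level of Reg3b in +VE, 575 to 3805 TPM, overlapped that of +E at 48.4 to 996 TPM.

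Of 57 genes of the upregulated regeneration signature tested none was called by limma, 8 reached an unadjusted p under 0.05 (14%, against 8.7% of all genes tested), and the median interaction was 0.11. The calls in these lists stand against 1.01% of all genes tested. Of 52 genes of the downregulated signature 1 was called, the diamine oxidase Aoc1, with means of 75.6, 35.3, 74.5 and 11.7 TPM in NC, +V, +E and +VE (-1.39 ± 0.29, adjusted p = 0.0111), which lost its call without replicate 4 (-1.30, adjusted p = 0.0628) or 5 (-1.31, adjusted p = 0.0607), without the block, with a random block, within numbers 1 to 3 and with all 10 organoid groups in the fit. None of the 8 YAP target genes named by the study was called, with 1 at an unadjusted p under 0.05. Of 27 Hippo pathway genes 1 was called, the angiomotin-like gene Amotl1, with means of 0.571, 4.52, 11 and 15.3 TPM (-1.23 ± 0.30, adjusted p = 0.0347). Its call was lost in 19 of 34 leave-one-out fits (-1.39 to -0.95), without the block, within numbers 4 to 6, at a pseudocount of 5 TPM, under quantile normalization, at a minimum mean of 5 TPM and without replicates 2 and 7, and its sign turned on the linear scale (0.42 TPM).

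None of the 19 Paneth, 18 goblet, 26 enteroendocrine or 25 enterocyte markers tested was called, with 3, 4, 3 and 7 at an unadjusted p under 0.05 (15.8%, 22.2%, 11.5% and 28%, against 8.7% of all genes tested). Their median interactions were -0.23, -0.04, 0.06 and -0.20. The Paneth list was the one with the lowest combined median, at -1.29 with VPA, -0.37 with EPZ6438 and -2.57 with both.

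Of 26 tested developmental transcription factors bound by Polycomb, Sox11 and Sox14, factors of the developing nervous system, were called for synergy, 10 reached an unadjusted p under 0.05 (38.5%, against 8.7% of all genes tested), and the median interaction was 0.01. The calls here and in the lists that follow stand against 1.01% of all genes tested. Sox11 ran from 3.59 over 4.75 to 6.64 TPM in +VE against at most 1.28 TPM elsewhere (1.76 ± 0.19, adjusted p = 1e-05), with the call lost at a pseudocount of 5 TPM. Sox14 had means of 0.0293, 0.110, 1.14 and 6.38 TPM (1.65 ± 0.41, adjusted p = 0.0414) and lost its call in 27 of 34 leave-one-out fits, and among other settings without the block, within numbers 4 to 6 and at both other pseudocounts. Of 32 neuronal genes the deubiquitinase Uchl1 was called positive (1.51 ± 0.32, adjusted p = 0.0129) and the axon guidance protein Dpysl5 (-1.45 ± 0.35, adjusted p = 0.0331) and the presynaptic Rims2 (-1.11 ± 0.24, adjusted p = 0.0165) negative, and the median was 0.15. In leave-one-out fits the call of Uchl1 was lost without replicate 1, 2, 3 or 6 (1.34 to 1.44), that of Dpysl5 in 20 of 34 and that of Rims2 in 6 of 34. Uchl1 also lost it within numbers 4 to 6 and at both other pseudocounts, and Dpysl5 and Rims2 without the block and without replicates 2 and 7, Dpysl5 further at a minimum mean of 5 TPM and Rims2 within numbers 1 to 3, within numbers 4 to 6, at a pseudocount of 5 TPM and under quantile normalization. Basp1, a growth cone protein on the fetal-like list, was called positive (1.70 ± 0.28, adjusted p = 0.0013), as 1 of 27, and lost its call at pseudocounts of 0.1 and 5 TPM. The imprinted Sgce was at 0.0409, 0.160, 2.65 and 7.80 TPM in the 4 groups, with effects of 0.15 for VPA, 1.78 for EPZ6438 and 3.05 for both (1.12 ± 0.18, adjusted p = 0.00137), and without replicate 3 its interaction of 0.97 was under the size asked for, as it was within numbers 4 to 6, at both other pseudocounts and with library weights. Among 6 germline genes tested the X-linked Xlr3a, which has close copies, was called positive (1.80 ± 0.43, adjusted p = 0.0330), with the call lost in 15 of 34 leave-one-out fits, without the block, within numbers 1 to 6, within numbers 4 to 6, without replicates 2 and 7 and at both other pseudocounts. By number the interaction of Xlr3a was 2.58 to 4.35 in numbers 1 to 3 and 0.03 to 0.65 in numbers 4 to 6. Among 22 Wnt feedback targets the Wnt inhibitor Apcdd1 was called negative, with means of 7.80, 25.1, 33.4 and 36.9 TPM (-1.49 ± 0.21, adjusted p = 0.00024), and no fit lost that call.

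The compounds' targets themselves did not pass the test. Ezh2 had means of 50.2, 45.8, 47.1 and 41.8 TPM in NC, +V, +E and +VE (interaction 0.05, adjusted p = 0.997) and Hdac1 131, 168, 140 and 182 TPM (0.07, adjusted p = 0.972). None of 32 PRC2 and PRC1 subunits or 33 deacetylase and corepressor genes was called by limma, with 6 and 1 at an unadjusted p under 0.05 (18.8% and 3.03%, against 8.7% of all genes tested). Their median interactions were -0.03 and 0.01.

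Some lists had most of their genes on one side of 0 without any call. Of 34 cholesterol and fatty acid synthesis genes, 32 had a positive interaction, 6 of the 34 at an unadjusted p under 0.05, with a median of 0.32, against 6507 of 12556 genes positive. All 41 mitosis and G2/M genes and 41 of 44 DNA replication genes had a negative one, with medians of -0.20 and -0.24 and with 5 and 3 at an unadjusted p under 0.05. Of 39 glutathione and NRF2 response genes 32 were positive, of 23 Notch pathway genes 5 and of the 10 tuft markers 1, with medians of 0.12, -0.11 and -0.23 and with 4, 3 and 3 at an unadjusted p under 0.05, a threshold that 8.7% of all genes tested passed. Genes of a list are not independent of each other, so these counts carry no test. By replicate number, the cholesterol median was 0.05, -0.54 and 0.07 in numbers 1 to 3 and 0.74, 0.89 and 0.87 in numbers 4 to 6. The mitosis median was negative in 6 of 6 numbers, and the replication median in 4 of 6. The glutathione and NRF2 median was -0.20, -0.14 and -0.13 in numbers 1 to 3 and 0.53, 0.58 and 0.36 in numbers 4 to 6, and the Notch median was negative in 4 of 6. The median of all genes tested was itself -0.30 in number 2 and between -0.01 and 0.12 in the other numbers.

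The promoter windows of the called genes were read for the CG dinucleotide (the letters CG, the same on both strands). A window held a median of 21 CG over the 9865 tested genes with a RefSeq window, 18.5 over 62 of the 79 synergy genes and 21 over 20 of the 36 redundancy genes. At least 15 CG were found in 70.4% of all windows, 61.3% of the synergy and 80% of the redundancy windows. Among genes with an NC mean under 1 TPM the shares were 63% for synergy (median 21) and 57.7% for all tested (median 18). Of the 6 antagonism genes only 2 had a window. A count of CG describes the window and shows no binding or mark there. Those of 4 leaders are shown to set the poor windows of Olfm4 and Ifitm1 (5 CG each) and Bex4 (9) beside the rich one of Tmem47 (29), all of which had the +VE libraries apart from all others. They lie at chr14:80000052-80000351 (+ strand), chr7:140967826-140968125 (+), chrX:136138746-136139045 (+) and chrX:81070394-81070693 (+) of GRCm38.p6, are printed 5′ to 3′ from RefSeq, and have CG in capitals.
Olfm4: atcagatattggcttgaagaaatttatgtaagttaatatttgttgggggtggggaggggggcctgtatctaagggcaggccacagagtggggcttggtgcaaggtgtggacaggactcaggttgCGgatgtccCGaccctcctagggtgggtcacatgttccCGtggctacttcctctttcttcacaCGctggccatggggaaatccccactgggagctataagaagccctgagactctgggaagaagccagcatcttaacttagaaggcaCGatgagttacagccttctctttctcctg
Ifitm1: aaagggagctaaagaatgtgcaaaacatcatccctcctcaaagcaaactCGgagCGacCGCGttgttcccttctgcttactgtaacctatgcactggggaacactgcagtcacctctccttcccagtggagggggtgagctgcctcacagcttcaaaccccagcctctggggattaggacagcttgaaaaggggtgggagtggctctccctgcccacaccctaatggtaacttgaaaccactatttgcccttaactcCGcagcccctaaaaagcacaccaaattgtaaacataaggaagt
Bex4: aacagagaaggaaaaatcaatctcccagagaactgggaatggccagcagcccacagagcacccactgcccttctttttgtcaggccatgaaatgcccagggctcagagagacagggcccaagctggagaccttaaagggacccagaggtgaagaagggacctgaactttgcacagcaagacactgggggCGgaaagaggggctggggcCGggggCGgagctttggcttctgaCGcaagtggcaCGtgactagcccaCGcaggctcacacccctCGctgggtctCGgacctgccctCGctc
Tmem47: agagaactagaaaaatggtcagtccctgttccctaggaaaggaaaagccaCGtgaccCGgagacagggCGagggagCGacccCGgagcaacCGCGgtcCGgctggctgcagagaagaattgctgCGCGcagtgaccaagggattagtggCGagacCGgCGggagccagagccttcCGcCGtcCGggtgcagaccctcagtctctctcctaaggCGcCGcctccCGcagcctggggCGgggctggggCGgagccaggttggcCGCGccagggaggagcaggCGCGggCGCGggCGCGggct

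**Figure D5:**
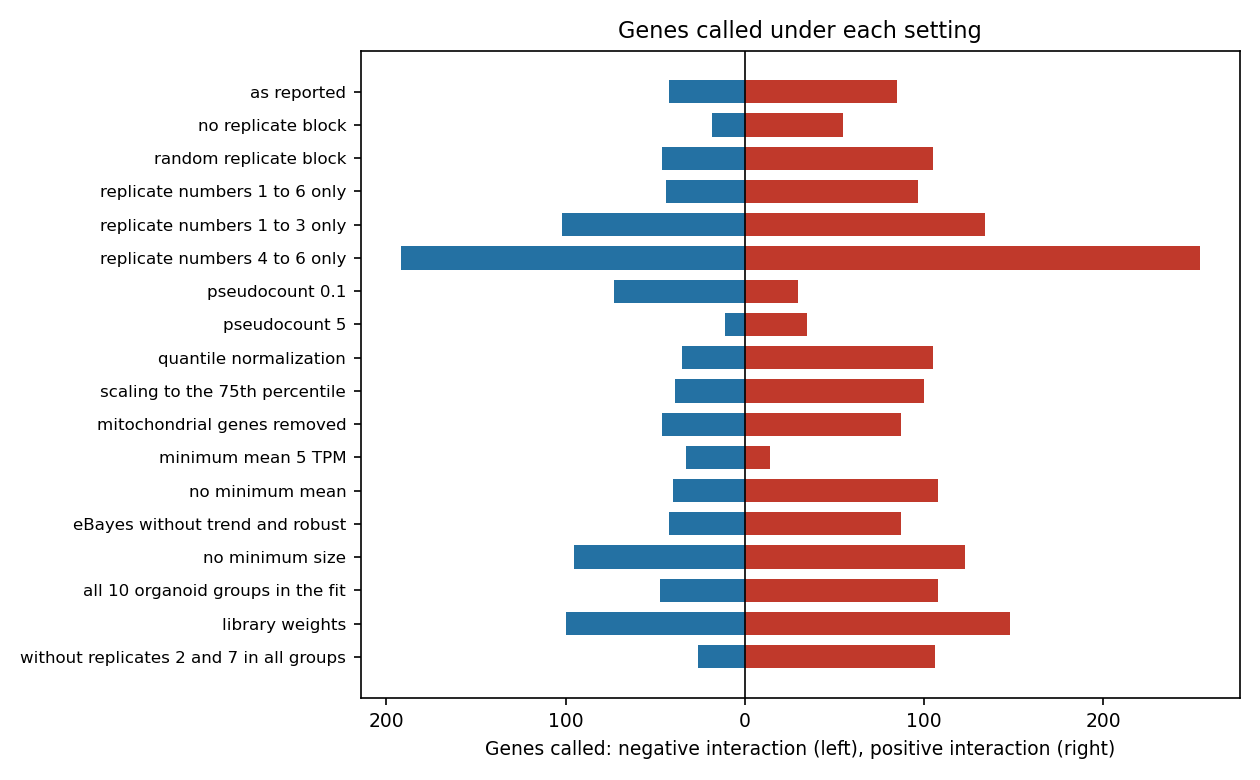
Number of genes called with a positive (right, red) and a negative (left, blue) interaction under each setting of the analysis, 1 bar per setting. The fit as reported has 85 and 42, a pseudocount of 0.1 TPM 30 and 73, and numbers 4 to 6 alone 254 and 192.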

How the data were processed

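According to the labels, total RNA was sequenced as 2 × 150 bp pairs, and the submitters' processing notes name Trimmomatic 0.39, STAR 2.7.3a, featureCounts and the mm10 build. The deposited table held TPM values made by the authors for 29579 genes, summing to 986219 to 988144 per library. How TPM was derived from counts is not given in the sources used here.

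The 12556 genes whose average over the 27 libraries reached 1 TPM were fitted on log2(TPM + 1) with limma 3.58.1 in R 4.3.3, as replicate number + VPA + EPZ6438 + their interaction, with eBayes (trend, robust), a two-sided test and Benjamini-Hochberg adjustment. Of 39 pairs of equal number, 37 had correlated deviations over 0.1 (median 0.66), and 24 of 27 libraries correlated best with their own number. Those that did not were +VE replicates 1, 2 and 5. In numbers 1 to 6 the pairs with +VE had correlations of 0.0387 to 0.603, against 0.660 to 0.770 for pairs among NC, +V and +E. In number 7 the pairs with +VE had 0.648 and 0.808. Presence or absence of Xist and Eif2s3y also matched within each number. In number 1 both were present, but at levels that differed between the groups. There Xist was at 17.6, 44.5, 19.2 and 11.0 TPM and Eif2s3y at 54.7, 15.1, 25.3 and 63.4 TPM in NC, +V, +E and +VE. In a test on simulated data for this interaction over 12519 genes, 93 of 100 interactions of 1.5 and 100 of 100 of 2.5 were recovered, with 5 unchanged genes called. Interactions were planted only in genes with a higher mean level than the filter asks for, with independent noise of a constant SD per gene. The test thus did not cover recovery of genes near the filter, nor a library or set of numbers that stands apart.

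Named genes were the 8 largest interactions per class without predicted genes, the called list members, the screening markers, and Reg3g, Olfm4, Lgr5, Ezh2 and Hdac1, and others are marked in the text. One called antagonism gene is not reported here. The members, lists and alternatives were chosen with earlier results of these data known. No label says that replicates are separate mice, so p-values measure the spread between these libraries. Positions are from GENCODE M21 and promoters from RefSeq. Alternatives covered the block, pseudocount, filter, scaling, library weights and left-out libraries.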

Additional observations from a re-analysis of the deposited data

Results flagged for a closer look

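Of 228 group and gene combinations among the 58 genes named, 17 held a library far from the rest of its group by Dixon's ratio, which chance gives in about 1 in 20. In NC, replicate 7 was highest for Ifitm1 (1.32 TPM) and Nrg2 (0.469 TPM) and lowest for Cfi (3.42 TPM). NC replicate 4 was lowest for Olfm4 (682 TPM) and highest for Arxes1 (0.366 TPM) and Shh (0.711 TPM). The single nonzero NC values were Tmem47 in replicate 6 (0.0533 TPM) and Sox14 in replicate 5 (0.205 TPM). In +V, replicate 7 was lowest for Sntb1 (0 TPM) and highest for Sp6 (1.54 TPM) and Ndufa4l2 (24.3 TPM), replicate 2 was the single nonzero value for Gnat3 (0.157 TPM), and Sox11 was highest in replicate 3 (1.28 TPM) and Lamb1 in replicate 4 (3.42 TPM). In +VE, replicate 7 was lowest for Dmrt1 (0.388 TPM) and Arxes2 (43.4 TPM), and replicate 2 for Podxl (39.7 TPM).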

How the results depend on the processing

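For the 58 named genes, 2616 of 2979 values under the alternatives kept the direction and side of the threshold of the reported fit. Calls (in all, positive, negative) numbered 127, 85 and 42 as reported. Without the replicate block they numbered 73, 55 and 18, with 16 redundancy and 2 antagonism genes, and 20 named genes lost their call. The library +VE replicate 2 shows little of the shared deviation, and the other +VE libraries of numbers 1 to 6 show less of it than NC, +V and +E do. The pairing thus rests mostly on the pairs among NC, +V and +E. Numbers 1 to 3 alone gave 236, 134 and 102 (redundancy 76, antagonism 27), and numbers 4 to 6 alone 446, 254 and 192 (synergy 239, antagonism 69). A pseudocount of 0.1 TPM gave 30 positive and 73 negative (synergy 30, redundancy 63), and one of 5 TPM gave 46, 35 and 11 (synergy 32, redundancy 11, antagonism 2). A minimum mean of 5 TPM gave 47, with 14 positive (synergy 15, antagonism 2). With no minimum size 218 were called, 95 negative (redundancy 66, antagonism 10). All 10 organoid groups in the fit gave 11 antagonism genes. Chosen after seeing the data, library weights gave 248, 148 and 100 (redundancy 66, antagonism 35), and leaving out replicates 2 and 7 gave 26 negative (redundancy 19). Leaving out 1 library or 1 number, the ranges were 81 (without replicate 1) to 145 (without +VE replicate 2) called, 59 to 102 positive, 21 to 52 negative, 56 to 93 synergy, 16 to 47 redundancy and 2 to 9 antagonism. Signs turned for Ezh2 (no block -0.015, numbers 1 to 3 -0.060, linear -0.890 TPM), Hdac1 (numbers 1 to 3 -0.075), Clu (numbers 4 to 6 -1.40, linear -41.8 TPM), Anxa1 (numbers 4 to 6 -0.49, without replicates 2 and 7 -0.018), Reg3b (numbers 4 to 6 -1.08) and Arxes2 (pseudocount 5 TPM 0.18). On the linear scale they turned for Olfm4 (124 TPM), Bex4 (319 TPM), Nid1 (8.00 TPM), Amotl1 (0.42 TPM) and Arxes2 (36.3 TPM). With 1 library or number left out, Reg3b ranged from -0.26 to 1.03, Anxa1 from -0.0058 to 0.45 and Ezh2 from -0.0086 to 0.095. The cause of these changes was not tested. The depth behind low TPM values is unknown, so the genes near 0 TPM in NC, 67 of the 79 synergy genes, have an interaction whose size follows the pseudocount.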

Other observations

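The study also holds organoids in ENR medium (EGF, Noggin and R-Spondin 1), 7 libraries, and in ENR medium with both compounds, 3 libraries, which have no single-compound groups and so no interaction. Among the synergy leaders, Dmrt1, Tmem47 and Bmp4 were listed at 0 in all 7 ENR libraries and lay at 2.93 to 8.12, 5.00 to 10.4 and 3.75 to 5.18 TPM with both compounds. Sntb1 was at 0.0540 to 0.397 TPM and at 3.86 to 6.97 TPM. Ifitm1 was at 0 to 1.16 TPM in ENR and at 0.188 to 1.62 TPM with both compounds, against 1.85 to 54.3 TPM in +VE. With both compounds in ENR, Fn1 was at 0.317 to 0.809 TPM and Fscn1 at 2.18 to 3.21 TPM, against 1.29 to 31.1 and 10.5 to 56.5 TPM in +VE. Olfm4 had means of 2500 and 1095 TPM in ENR without and with the compounds, against 1378 and 24.2 TPM in NC and +VE. Among the redundancy leaders, Bex4 was at 0 to 1.14 TPM and at 277 to 283 TPM and Rbpms at 0.0905 to 0.865 TPM and at 21.5 to 23.8 TPM, whereas Aqp5 was at 0 in all 3 libraries with both compounds. Of the antagonism genes, Gnat3 was at 0 to 0.417 TPM and at 1.51 to 3.48 TPM, above its 0.180 to 1.34 TPM in +VE. The libraries of the 2 media were not tested against each other.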
